A study of Artemia parthenogenetic lineage with 6 samples.

Results

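Transcript levels of an epidermal growth factor (EGF) receptor model and a Loco model were followed in brine shrimp (Artemia parthenogenetica) cysts, before and after diapause was broken. The 2 gene models, evm.TU.ctg470.4 for the EGF receptor and evm.TU.ctg756.7 for Loco, were taken by identifier out of 16591 models in the count table. Both names come from the study, which singled the models out among signal transduction genes. Those genes went up in RNA and in chromatin accessibility at each of its sampling steps, judged partly on these same libraries. A higher level at 5 h was therefore built into the choice, and the tests of it below are not independent evidence of its direction.

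RNA was sequenced from wild-type (WT) cysts of the parthenogenetic lineage, collected from Ebinur Lake as field material, in 3 libraries of each stage. The ArR_5h cysts were sampled 5 h after embryonic diapause termination (EDT), having been held at 28 °C with constant light in seawater of 30‰ salinity, whereas the ArD_0h cysts were in diapause and are labelled as having received no treatment. The paper describes drying and refrigeration as the step that broke diapause, before the cysts were reactivated. The stages may therefore differ by that step as well as by the incubation. The labels give 1 rehydration text for both stages, so the water content of the ArD_0h cysts at sampling cannot be read from them. The libraries of a stage were described as biological replicates from a single batch of cysts, and the p-values measure the spread between these libraries only. Totals ran from 9992823 to 12283327 counted reads in ArR_5h libraries and from 10135128 to 13505892 in ArD_0h libraries, and 14844 models had at least 1 read. A cyst is a whole embryo in its shell, so more RNA per cell and more cells of one kind cannot be told apart. The table pairs no identifier with a gene name, and tissue markers were not analysed here.

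The EGF receptor is a receptor tyrosine kinase of the cell surface. On binding its ligand it passes a signal through Ras, Raf and the MAP kinases, and in Drosophila this route takes part in many decisions on cell fate. Loco is known from Drosophila as a regulator of G-protein signalling, a class of proteins that speed up GTP hydrolysis by Gα subunits and so shorten the signal of G-protein-coupled receptors. The receptor thus stands at the start of a signalling route, and Loco acts on the switch below another kind of receptor.

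Both models were higher at 5 h after EDT than in diapause, by 2.41-fold for the EGF receptor and 3.97-fold for Loco. In diapause they lay at nearly the same level per length, and at 5 h Loco stood clearly above the EGF receptor. Per length, neither was an abundant transcript at either stage.

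The EGF receptor model is 4844 bases long, as worked back from its counts and FPKM. It had 497, 510 and 355 reads in the ArR_5h libraries, against 158, 186 and 224 reads in the ArD_0h libraries. Per length, in the deposited fragments per kilobase scaled to library depth (FPKM), these were 8.80, 9.89 and 6.29 FPKM in ArR_5h cysts and 3.03, 3.77 and 3.41 FPKM in ArD_0h cysts. The groups did not overlap, an arrangement seen in either direction in 66.9% of all tested models and with ArR_5h higher in 33.4%, and ArR_5h replicate 3 lay well below its companions.

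The mean level of the EGF receptor was 8.33 ± 1.84 FPKM at 5 h and 3.40 ± 0.368 FPKM in diapause (SD, n = 3 libraries each). Its log2 fold change was 1.27 ± 0.17 (SE), with an adjusted p of 0.000125 by the quasi-likelihood F test of edgeR over 11959 tested models. Calling a model took an adjusted p up to 0.05 with a log2 fold change beyond 1 or -1, and by this rule 14.3% of all tested models were called up and 10.7% down, together 25.0%. The band of 2 standard errors around the EGF receptor value ran from 0.93 to 1.62, which takes in the limit of 1. When the fold limit itself was made the null (glmTreat of edgeR), the adjusted p was 0.145 and the EGF receptor was not called.

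The Loco model is 5124 bases long, worked back in the same way. It had 941, 883 and 769 reads in the ArR_5h libraries, against 197, 207 and 250 reads in the ArD_0h libraries. These counts correspond to 15.8, 16.2 and 12.9 FPKM in ArR_5h cysts and to 3.58, 3.96 and 3.60 FPKM in ArD_0h cysts. The groups stood far apart, since the lowest ArR_5h library was 3.18 times the highest ArD_0h library in depth-scaled counts (CPM). The same quotient was 1.63 for the EGF receptor.

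Loco averaged 14.9 ± 1.80 FPKM at 5 h and 3.71 ± 0.218 FPKM in diapause (SD, n = 3 libraries each). Its log2 fold change was 1.99 ± 0.12 (SE), with an adjusted p of 8.47e-07 in the same edgeR fit. The band of 2 standard errors, 1.75 to 2.22, lay wholly above the limit, and Loco was still called when the fold limit was the null (glmTreat adjusted p = 5.26e-05).

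**Figure D1:**
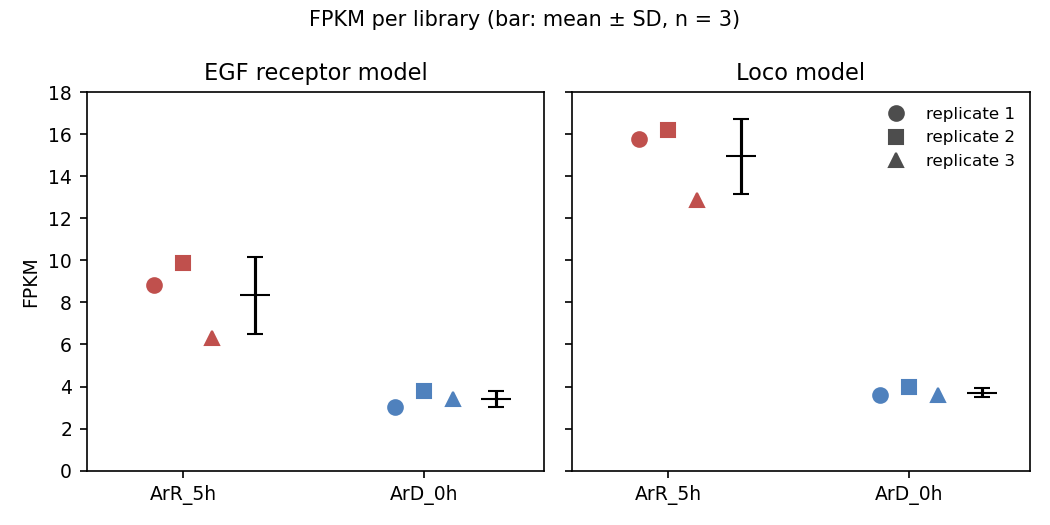
FPKM (vertical axis) of the EGF receptor model (left) and the Loco model (right) in each ArR_5h and ArD_0h library; symbols mark the replicate, and the bar is the mean ± SD of 3 libraries. ArR_5h libraries sit at 6.29 to 9.89 FPKM for the EGF receptor and 12.9 to 16.2 FPKM for Loco, all above the ArD_0h libraries, which sit at 3.03 to 3.77 and 3.58 to 3.96 FPKM.

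Ordered by mean FPKM, Loco at 5 h was highest, followed by the EGF receptor at 5 h, Loco in diapause and the EGF receptor in diapause. At 5 h no library overlapped between the models, and the EGF receptor at 5 h did not overlap Loco in diapause. In diapause the libraries of the models overlapped, although Loco was the higher of the pair within each of the 3 libraries.

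The spread between libraries was larger at 5 h for both models. The EGF receptor had a coefficient of variation of 23.0% in ArR_5h libraries and 10.8% in ArD_0h libraries, whereas reads alone would give 4.43% to 5.31% and 6.68% to 7.96% by counting error. For Loco the coefficient was 12.8% in ArR_5h libraries and 5.75% in ArD_0h libraries, against 3.26% to 3.61% and 6.33% to 7.13% from counting. With 3 libraries a stage these coefficients are themselves imprecise, and they were not compared by a test. The median tested model had 14.3% at 5 h and 7.91% in diapause, so the EGF receptor varied more than the typical model and Loco slightly less at both stages.

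ArR_5h replicate 3 gave the lowest 5 h level of both. Its CPM was 0.663 of the mean of the other ArR_5h libraries for the EGF receptor and 0.795 of that mean for Loco. Among the 1709 models called up, 966 (56.5%) also had their lowest ArR_5h value in replicate 3, and the median quotient was 0.874. Low values there were not limited to rising models. Among the 1275 models called down the median quotient was 0.791, and 214 (16.8%) had their highest ArR_5h value in replicate 3. Without this library the log2 fold change of the EGF receptor was 1.45 and that of Loco was 2.10, and both stayed called. What set replicate 3 apart was not tested.

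Ranked by FPKM within the transcriptome, the EGF receptor stood near the middle at 5 h and Loco above it, whereas both stood below the middle in diapause. By mean FPKM among the 14844 models with reads, the EGF receptor ranked 6970 at 5 h, with 53.05% of models lower, and 8948 in diapause, with 39.7% lower. Loco ranked 5394 at 5 h, with 63.7% of models lower, and 8717 in diapause, with 41.3% lower. In single libraries the share of models below the EGF receptor was 54.2%, 55.2% and 49.9% in ArR_5h cysts and 37.3%, 41.5% and 40.0% in ArD_0h cysts. The share below Loco was 64.5%, 64.4% and 62.3% in ArR_5h cysts and 40.2%, 42.4% and 40.9% in ArD_0h cysts. For both models the shares of the groups did not overlap. These shares depend on the set ranked, since models with few reads fill the bottom of the scale. Among the 11959 tested models alone, the EGF receptor stood above 41.7% at 5 h and 25.4% in diapause, and Loco above 54.9% at 5 h and 27.2% in diapause. The measure matters too, for by CPM, which takes no account of length, both stood above the middle at both stages. Among the 14844 models, the EGF receptor was then above 71.05% to 77.1% in ArR_5h libraries and 58.4% to 62.0% in ArD_0h libraries. Loco was above 83.0% to 85.8% and 61.9% to 63.9%.

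**Figure D2:**
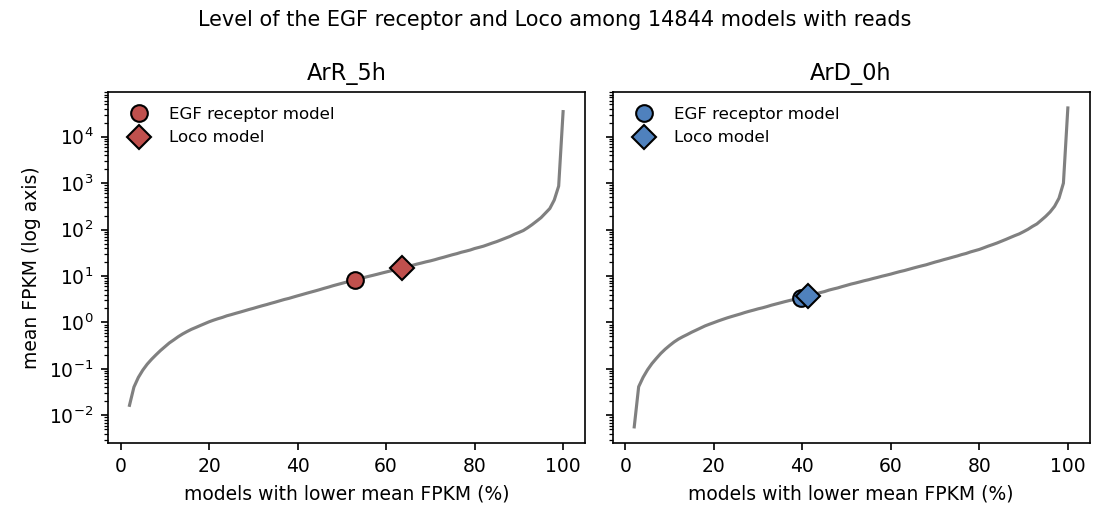
Mean FPKM (vertical, log axis) against the percentage of 14844 models with a lower mean FPKM (horizontal) for ArR_5h (left) and ArD_0h (right); the grey line follows all models, the circle is the EGF receptor and the diamond is Loco. At 5 h the models stand at 53.05% and 63.7%, whereas in diapause they nearly coincide at 39.7% and 41.3%.

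The sizes of change were also ranked. A log2 fold change at least as high as that of the EGF receptor was found in 9.76% of the tested models, and one at least as high as that of Loco in 2.60%. Among the 1709 models called up, the EGF receptor ranked 1166 and Loco ranked 311. The median log2 fold change of all tested models was -0.01, and the TMM scaling of edgeR sets it near 0.

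Whether Loco changed by more than the EGF receptor was examined as a ratio within each library, where library scaling cancels. Loco had 1.79, 1.64 and 2.05 times the FPKM of the EGF receptor in the ArR_5h libraries and 1.18, 1.05 and 1.06 times in the ArD_0h libraries. All ArR_5h ratios exceeded all ArD_0h ratios. The mean log2 ratio was 0.86 ± 0.16 at 5 h and 0.13 ± 0.09 in diapause (SD, n = 3 libraries each), a difference of 0.73 ± 0.11 (SE) or 1.66-fold. A two-sided exact permutation test over the libraries gave p = 0.1, the smallest value that 3 against 3 can give, so this test could not reach 0.05. The library with the lowest level of both models, ArR_5h replicate 3, had the highest ratio.

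**Figure D3:**
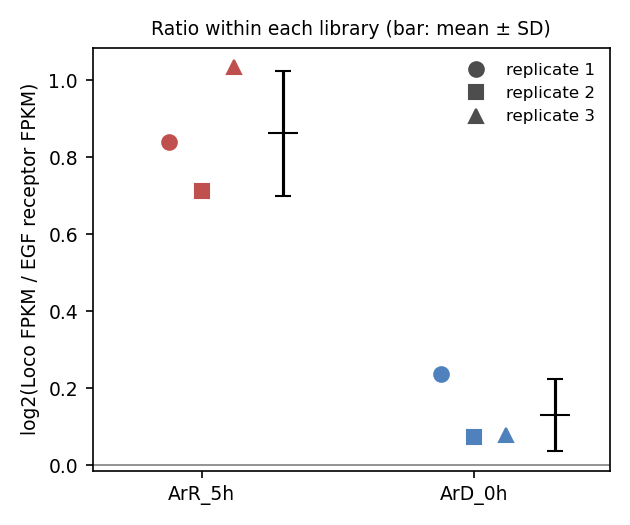
The log2 ratio of Loco FPKM to EGF receptor FPKM (vertical axis) within each ArR_5h and ArD_0h library; symbols mark the replicate, and the bar is the mean ± SD of 3 libraries. The ArR_5h ratios lie around 0.86 and the ArD_0h ratios around 0.13, just above equal levels at 0.

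The profiles over the 6 libraries were then compared with those of 9270 tested evm models, as the Euclidean distance between log2 CPM profiles centred on their own means. The nearest to the EGF receptor were evm.TU.ctg152.11 at a distance of 0.141, with a log2 fold change of 1.17, and evm.TU.ctg44.2.2 at 0.175, with 1.29. The nearest to Loco were evm.TU.ctg77.4 at 0.0948, with a log2 fold change of 2.01, and evm.TU.ctg347.2 at 0.119, with 1.96. None of these is annotated in the sources used here beyond its identifier. The EGF receptor and Loco were at a distance of 0.935 from each other. Loco had rank 1533 in order of distance from the EGF receptor, and the EGF receptor had rank 648 from Loco.

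The other models on the same contigs gave different pictures. On contig ctg470, which holds 5 models, 2 were called up, the EGF receptor among them, 0 were called down and 3 were not called. Over all tested models 14.3% were called up and 10.7% down. All ArR_5h libraries lay above all ArD_0h libraries for each of the 5 models on the contig. The same held for 33.4% of all tested models. The EGF receptor had the largest log2 fold change and the lowest FPKM of the contig at both stages.

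The other model called on contig ctg470 was evm.TU.ctg470.6, which the annotation of the study gives a role in small GTPase signal transduction. It had 32.9, 37.0 and 29.4 FPKM in ArR_5h cysts and 16.2, 14.5 and 14.97 FPKM in ArD_0h cysts, a log2 fold change of 1.10 ± 0.11 (SE) with an edgeR adjusted p of 1.66e-05. It belongs to the same set of rising signal transduction genes picked by the study, so its direction was also built into the choice, and like the EGF receptor it was not called when the fold limit was the null. The 3 models that were not called, with no annotation used here, had log2 fold changes of 0.67 ± 0.12 for evm.TU.ctg470.1, 0.999 ± 0.11 for evm.TU.ctg470.2 and 0.55 ± 0.17 for evm.TU.ctg470.3. The value of evm.TU.ctg470.2 was just inside the limit, and it was called in 7 of the alternatives. The median of the 4 models other than the EGF receptor was 0.84.

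Contig ctg756 holds 7 models, and Loco was its only one called up. Of the 6 others, 0 had all ArR_5h libraries above the ArD_0h libraries, 2 had all of them below and 4 overlapped. Over all tested models the shares were 33.4% above and 33.4% below, so 2 of 6 lying below is no more than the background. By calls, the same 2 of the 6 were down and 0 were up, against 10.7% down and 14.3% up over all tested models. With 6 models these shares were not compared by a test. The models called down were evm.TU.ctg756.4, at 51.0 ± 9.83 FPKM at 5 h and 111 ± 5.05 FPKM in diapause, and evm.TU.ctg756.12, at 92.7 ± 9.46 FPKM at 5 h and 191 ± 15.5 FPKM in diapause (SD, n = 3 libraries each). Their log2 fold changes were -1.14 ± 0.13 and -1.06 ± 0.10. The second was no longer called without ArR_5h replicate 3 (-0.97) or without ArD_0h replicate 2 (-0.998).

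The remaining models of contig ctg756 were not called. Their log2 fold changes were -0.17 ± 0.11 for evm.TU.ctg756.5, -0.09 ± 0.10 for evm.TU.ctg756.6, 0.05 ± 0.28 for evm.TU.ctg756.9 and -0.19 ± 0.09 for evm.TU.ctg756.13. The sign of evm.TU.ctg756.9 depended on the test used and that of evm.TU.ctg756.6 on ArR_5h replicate 2. The contig also spans a wide range of levels, for evm.TU.ctg756.13 had 1917 ± 243 FPKM at 5 h and 2160 ± 93.7 FPKM in diapause. Loco had the lowest FPKM of the 7 models in diapause and took rank 5 at 5 h. The median log2 fold change of the other 6 was -0.18.

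**Figure D4:**
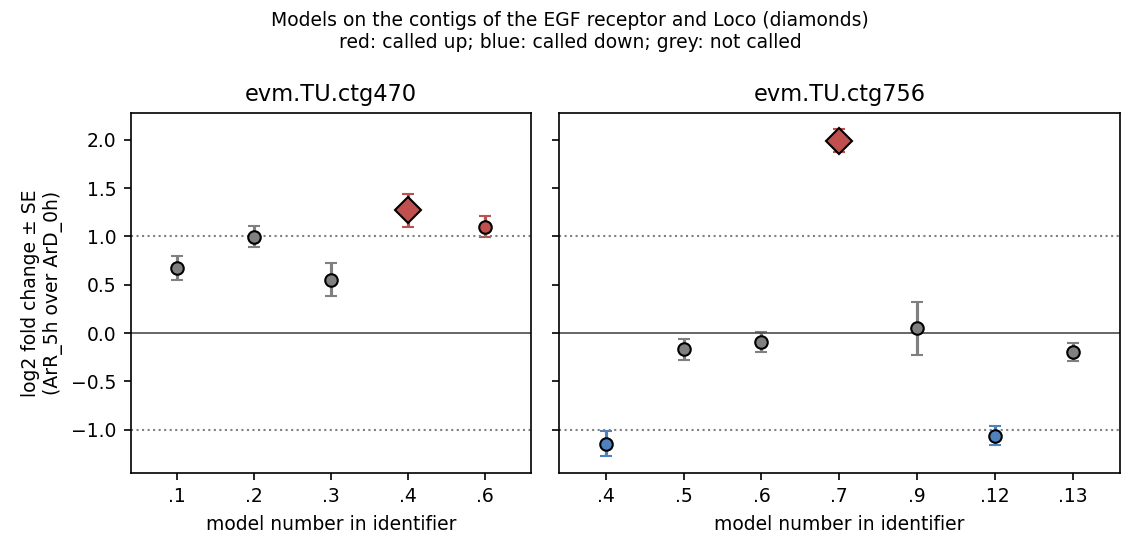
Log2 fold change of ArR_5h over ArD_0h (vertical axis, bars ± SE) for the 5 models of contig ctg470 (left) and the 7 models of contig ctg756 (right), by the number that ends the identifier; diamonds are the EGF receptor and Loco, dotted lines the limits of 1 and -1, and colours the calls. All models of contig ctg470 lie above 0, with the EGF receptor highest at 1.27, whereas on contig ctg756 Loco stands alone at 1.99 and the others lie between -1.14 and 0.05.

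Reads from overlapping or antisense genes cannot be separated here, since the library kit does not mark strand, and reads from close relatives of a gene may be shared between models. Neither could be examined for the EGF receptor, a member of a large kinase superfamily, or for Loco. Alignment used the related Artemia franciscana as reference, so sequence divergence may lower a model's level at both stages.

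To place the models among signalling genes, 6 lists were taken from the gene ontology annotation of the study. The annotation was held in part, for 567 models that the study chose for a change between diapause and 30 min after EDT, partly on the ArD_0h libraries, and the 30 min libraries were not analysed here. Of these models 566 were tested, and 39.6% were called up at 5 h against 14.3% of all tested models, with a median log2 fold change of 0.76. The direction of the lists below is thus tied to how their models were chosen, and their counts are a description. Among these 566 models the EGF receptor stood above 70.5% and Loco above 90.8% by log2 fold change.

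In the signal transduction list, which holds both models, 24 of 45 tested models were called up, 0 were called down and 21 were not called, with a median log2 fold change of 1.10. The share called up was 53.3%, against 39.6% of the 566 models and 14.3% of all tested models. Called down were 10 of the 566 models and 10.7% of all tested models. Loco took rank 5 in this list and the EGF receptor rank 15. The largest rises belonged to evm.TU.ctg557.4, annotated as an adenylate cyclase, the enzyme that makes cyclic AMP below G proteins, at 2.52 ± 0.21, and to evm.TU.ctg707.3, annotated for calcium ion binding, at 2.33 ± 0.21 on the log2 scale (SE). Both started from low levels, of 1.22 ± 0.195 and 0.777 ± 0.135 FPKM in diapause.

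The EGF receptor model also stood in a list of kinase annotation. In this list, of protein kinase activity or protein phosphorylation, 18 of 27 models were called up and 0 were called down, with a median log2 fold change of 1.33. The share called up was 66.7%, against 39.6% of the 566 models and 14.3% of all tested models. The EGF receptor took rank 15 of the 27, near the middle of the kinases. The largest log2 fold changes were those of evm.TU.ctg71.10 at 2.21 ± 0.15 and evm.TU.ctg215.33 at 2.20 ± 0.19. The first of these had 12.9 ± 1.99 FPKM at 5 h and 2.77 ± 0.235 FPKM in diapause.

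Loco belongs to a list of 5 regulators of GTPases or other nucleoside triphosphatases, of which 3 were called up and 0 were called down. The share called up was 60.0%, against 39.6% of the 566 models and 14.3% of all tested models. Loco came next to the top of the list, after evm.TU.ctg11.27, annotated as a GTPase activator, at 2.36 ± 0.31 on the log2 scale. The other one called, evm.TU.ctg1232.1, had a log2 fold change of 1.74 ± 0.13. One of those not called was evm.TU.ctg27.20 at -0.66 ± 0.08, which is annotated as an ATPase inhibitor and not as a GTPase regulator.

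G-protein-coupled receptors and small GTPases are the molecules beside which regulators and receptor kinases act. Of 8 models annotated for G-protein-coupled receptor activity or its pathway, 4 were called up and 0 were called down. For comparison, 39.6% of the 566 models and 14.3% of all tested models were called up. Called down were 10.7% of all tested models. The median log2 fold change of the list was 0.79, against 0.76 for the 566 models. The 8 models of this list were not compared with the others by a test. The largest log2 fold change was that of evm.TU.ctg485.29, an adhesion receptor of this class, at 33.4 ± 2.81 FPKM at 5 h and 8.52 ± 0.470 FPKM in diapause, and its value of 1.95 ± 0.10 was close to that of Loco. The next was evm.TU.ctg637.4 at 1.37 ± 0.18 on the log2 scale.

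Of 7 models for small GTPase signal transduction, the class of switch to which Ras belongs, 2 were called up and 0 were called down, and the median was 0.79. They were evm.TU.ctg151.12, a GTP-binding model with a log2 fold change of 1.22 ± 0.21, and evm.TU.ctg470.6, the contig neighbour of the EGF receptor. The call of evm.TU.ctg151.12 was lost without ArR_5h replicate 2, where its value was 0.997. Of 9 models annotated for GTPase activity, 1 was called up, again evm.TU.ctg470.6, and 0 were called down, with a median of 0.48. The shares called up were 28.6% for small GTPase signal transduction and 11.1% for GTPase activity. Both were below the 39.6% of the 566 models, and the second was also below the 14.3% of all tested models. These shares rest on few models.

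**Figure D5:**
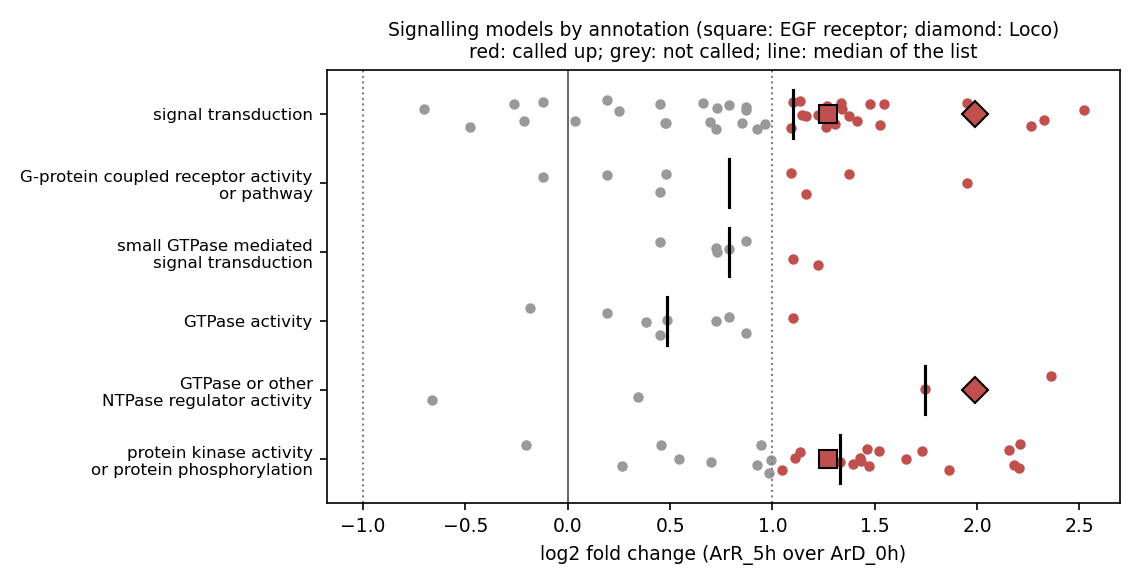
Log2 fold change of ArR_5h over ArD_0h (horizontal axis) for every model of 6 annotation lists (rows; a model may stand in more than one); points are models, the square is the EGF receptor, the diamond is Loco, vertical bars are list medians and dotted lines the limits of 1 and -1. Loco at 1.99 lies near the right edge of its lists, and the EGF receptor at 1.27 lies close to the medians of 1.10 and 1.33.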

How the data were processed

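Cysts of 2 stages were sequenced as 150 bp paired-end reads, with 3 libraries per stage. The authors removed adapter, poly-N and low-quality reads, aligned the rest to the Artemia franciscana genome, assembly ASM3288406v1, and deposited a raw read count per gene model and library. The submitters' processing notes name HISAT2 2.0.5 and featureCounts 1.5.0-p3; the strand setting was not stated in the sources used here. The authors derived FPKM from each count and the length of the model, with library divisors at 94.9% to 107% of the totals. Divisors and lengths were not given and were worked back here from counts and FPKM, taking lengths as whole bases. Replicates were not pooled, and 0 value columns were left over.

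Counts were tested with edgeR 4.0.16 in R 4.3.3 (TMM factors, filterByExpr with a minimum count of 10 and a minimum total of 15, Benjamini-Hochberg adjustment), which left 11959 models tested and 4632 not tested. The standard error is the log2 fold change divided by the square root of F. Counting errors treat reads as independent molecules, which they are not. The code was tested on simulated data. The alternatives were other scalings (RLE, library totals), no filter or 1 CPM, DESeq2 1.42.0, limma-voom and limma 3.58.1 on log2(FPKM + 1) and log2(FPKM + 0.1), glmTreat, a replicate block, other sets for ranking, and leaving out each replicate. FPKM fits kept models of at least 1 FPKM in 3 libraries.

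Named were the EGF receptor and Loco models, all models on their contigs, the 2 nearest profiles of each, and the 2 largest rises and falls called per list. Models evm.TU.ctg1232.1 and evm.TU.ctg27.20 were named after their values were seen. The models and lists were chosen with earlier results of these data known. Some results are not reported here. Sequences and coordinates were not used here.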

Additional observations from a re-analysis of the deposited data

How the results depend on the processing

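Under all alternatives the EGF receptor and Loco models kept a higher level at 5 h, and Loco stayed called in each. With the fold limit as the null (glmTreat of edgeR) the log2 fold change of 1.27 of the EGF receptor was no longer called, calls numbered 1359 in all (836 up and 523 down) against 2984, 0 on contig ctg470, 1 on contig ctg756, and in the lists 10 for signal transduction, 1 for G-protein-coupled receptors, 0 for small GTPases, 0 for GTPase activity and 11 for protein kinases, since that test asks for more than a fold over the limit. Leaving out 1 library gave 1.14 to 1.45 for the EGF receptor and 1.94 to 2.10 for Loco on the log2 scale, 1 to 2 calls for small GTPases (1 without ArR_5h replicate 2) and a Loco minus EGF receptor difference of 0.65 to 0.81, for which the smallest possible p is then 0.2. Deviations of same-numbered libraries from their stage means correlated weakly, at 0.0194, 0.0328 and 0.0955, against -0.092 to 0.0537 for libraries of different numbers. The numbers are therefore not taken as pairs. With a replicate block the log2 fold change was 1.25 for the EGF receptor (edgeR adjusted p = 3.24e-05) and 1.98 for Loco (3.13e-07). Calls with the block numbered 3006 in all (1693 up and 1313 down, against 1709 and 1275). The Loco minus EGF receptor difference was 0.73 (exact sign-flip permutation p = 0.25, the smallest that 3 pairs can give). Neither the EGF receptor, Loco nor any other model on their contigs gained or lost a call with the block. Percentiles of FPKM fell when only models kept by filterByExpr or only evm models were ranked, to 41.7 and 45.3 for the EGF receptor at 5 h and 25.4 and 34.0 in diapause, and to 54.9 and 56.7 for Loco at 5 h and 27.2 and 35.3 in diapause. Signs reversed, never among calls, for evm.TU.ctg756.6 without ArR_5h replicate 2 (0.00464; -0.21 to 0.00464 over libraries left out) and for evm.TU.ctg756.9 with limma-voom (-0.0804), the block (-0.0461), log2(FPKM + 1) (-0.0236), log2(FPKM + 0.1) (-0.0428) and without ArR_5h replicate 2 (-0.33; -0.33 to 0.35 over libraries left out); the cause was not tested.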
